A study of Drosophila melanogaster with 12 samples.

Results

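The heads came from adult flies without a running clock. In these heads, 52 probe sets gave a higher signal on every cold-phase array of a temperature cycle than on any array at 25 °C. They were chosen from the signals themselves. Among the 13966 probe sets of the array that are no controls, each member had the lowest of its 3 values at 18 °C above the highest of its 9 values at 25 °C, and a mean of at least 4 over the 12 arrays, on the log2 scale. Of the 10542 probe sets that met this floor, 0.493% were members. Order alone would put 3 given arrays of 12 on top in 1 of 220 cases, which comes to 47.9 probe sets or 0.455%. The mirror rule, with all 3 arrays at 18 °C below the other 9, was met by 89 probe sets or 0.844%. The number of members was thus close to the number that order alone gives and is not itself a result. Membership of a single gene is a description of 12 readings, and the differences between 18 °C and 25 °C are given without a test.

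The flies were y w; tim01, a strain in which the timeless mutation abolishes functional TIM protein and with it the circadian feedback loop. All 4 groups shared this genotype and constant darkness, and all flies had lived in a thermocycle of 18 °C and 25 °C before collection. On the cold/ambient (CA) day, heads were taken at 2, 6 and 10 h in the cold phase at 18 °C and at 14, 18 and 22 h in the warm phase at 25 °C, and on the ambient/ambient (AA) day at the same hours of the subjective cold and warm phases, all at 25 °C. Each hour was 1 array of pooled heads, sieved from broken frozen flies, so every group had 3 arrays that differ in hour, nothing states that they came from separate cultures, and p-values measure the spread between these hours.

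Flies do not regulate their body temperature, so a cold phase slows enzyme reactions throughout the animal and is known to affect splicing, translation and membranes. A fly head holds the compound eyes, the brain with its neurons and glia, muscle and a layer of fat body, the insect counterpart of liver and adipose tissue. A transcript level from whole heads is an average over these tissues, and fewer cells of a type cannot be told apart from less RNA per cell.

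The core clock genes tim, vri and per supplied 3 of the 52 members and are not described further. The other 49 probe sets covered 47 genes, since couch potato (cpo) appeared with 2 probe sets and 1 probe set carried no gene symbol. Their mean at 18 °C exceeded their mean at 25 °C by 0.08 to 0.79 on the log2 scale, with a median of 0.31, that is by 1.06 to 1.73-fold with a median of 1.24-fold. Over all probe sets with a mean of at least 4 the median difference was -0.01. The gap between the lowest array at 18 °C and the highest at 25 °C was narrower, from 0.002 to 0.23 with a median of 0.049. It was under 0.05 for 26 members and reached 0.1 for 8, whereas the median SD of a member was 0.07 among the 3 cold arrays and 0.12 among the 9 others. Large differences did not always meet the rule. Of 147 probe sets outside the core clock that were higher at 18 °C by 0.3 or more, 26 were members, and of 24 that were higher by 0.5 or more, 7 were.

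Several arrays stood apart from the rest. The CA 18-h array had a mean log2 signal of 7.91 for the spiked-in control transcripts, against 8.65 to 9.13 on the other arrays. It held the lowest of the 12 values for 18 of the 49 members (36.7%, against 15.3% of all probe sets with a mean of at least 4). The rule bears on the members' share, because it allows only the 9 arrays at 25 °C to be lowest. Without the CA 18-h array in the reference, the median difference of the members was 0.26. Among markers of other body parts, those of male accessory gland, testis and gut were highest on the CA 6-h, AA 2-h and AA 6-h arrays. Those of ovary and eggshell were not, with their highest mean at AA 18 h (6.51) and their lowest at AA 6 h (6.33). Without the CA 6-h, AA 2-h and AA 6-h arrays the median difference of the members was 0.32. Array medians lay between 5.18 and 5.22.

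**Figure D1:**
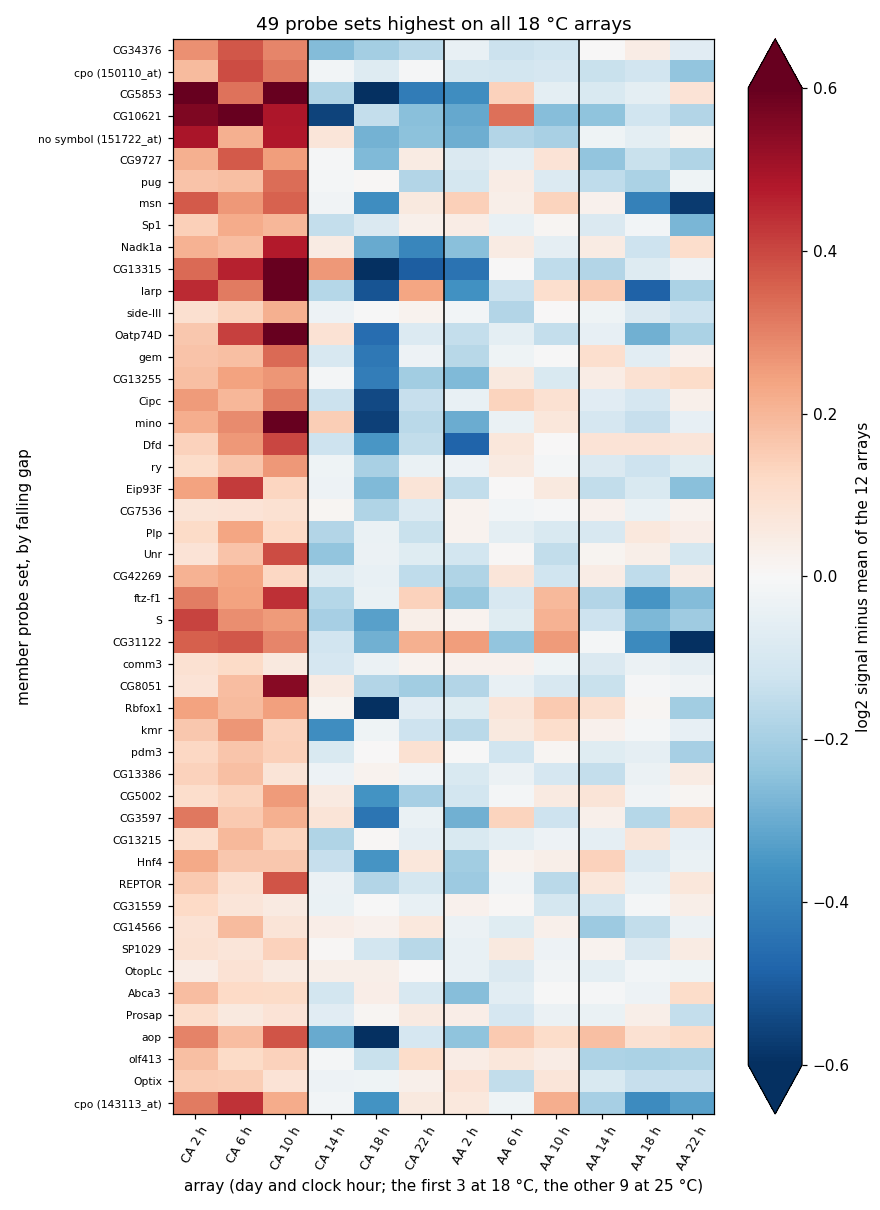
Log2 signal of each of the 49 member probe sets on the 12 arrays, as the deviation from its own mean, with members ordered from the widest gap (top) to the narrowest and vertical lines between the 4 groups. The first 3 columns are highest in every row because the rule required it. The CA 18-h column holds the lowest value of 18 rows (36.7%, against 15.3% of all probe sets with a mean of at least 4).

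RNA-binding proteins, which govern splicing, stability and translation of transcripts, supplied several members. cpo encodes an RNA-binding protein of the nervous system that has been linked to the seasonal arrest of reproduction in flies. Its probe set 150110_at read 6.86, 7.07 and 6.99 at 2, 6 and 10 h of the cold phase and 6.44 to 6.67 (median 6.57) on the 9 arrays at 25 °C, a difference of 0.40 or 1.32-fold. The gap was 0.20 and the SD of the 3 cold arrays 0.10, both taken from values that the rule used. The AA subjective cold arrays stood at 6.57 ± 0.01 (SD, n = 3). The second probe set, 143113_at, read 7.89, 8.02 and 7.81 at 18 °C against 7.21 to 7.80 (median 7.56), so that its 10-h cold value and the AA 10-h value lay only 0.002 apart although the mean difference was 0.43. A further cpo probe set, 150111_at, was no member, with a difference of 0.39 and a gap of -0.11.

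larp encodes a La-related protein that binds the ends of messenger RNAs. It read 7.36, 7.22 and 7.51 in the cold phase and 6.39 to 7.15 (median 6.74) at 25 °C, a difference of 0.60 or 1.52-fold. The CA 22-h array, at 7.15, came within 0.075 of the lowest cold array. The 25 °C arrays of larp were widely spread, with a CA warm mean of 6.76 ± 0.38 (SD, n = 3), and the second larp probe set differed by -0.001. Unr, with cold-shock domains and known for repressing translation of the dosage compensation gene msl-2, read 5.14, 5.22 and 5.45 against 4.82 to 5.09 (median 4.98). The splicing regulator Rbfox1 stood at 8.38, 8.34 and 8.39 against 7.45 to 8.30 (median 8.15), and its second probe set, no member, differed by 0.27 where the member differed by 0.30. The lowest Rbfox1 value, 7.45, was that of the CA 18-h array, and without that array the difference was 0.23. The list of RNA-binding and splicing genes, in which Unr and Rbfox1 do not appear, had 71 probe sets with a mean of at least 4. It held 3 members, both of cpo and that of larp, beside the share of 0.493% over all probe sets. None met the mirror rule. The median difference of that list was 0.06, against -0.01 over all probe sets.

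Transcription factors were among the members as well. Of 84 probe sets on the list of transcription factors, 4 were members, those of Dfd, Eip93F, Hnf4 and aop, and 1 met the mirror rule, beside the share of 0.493% over all probe sets. Deformed (Dfd) is the homeotic gene of the posterior head segments. It read 4.83, 4.95 and 5.09 through the cold phase and 4.21 to 4.77 (median 4.69) at 25 °C, a difference of 0.36. The 3 AA warm arrays were almost equal, at 4.77, 4.77 and 4.76. Eip93F and ftz-f1 belong to the ecdysone cascade, the steroid hormone pathway of moulting and metamorphosis that also acts in adults. Eip93F, an ecdysone-induced factor, read 5.07, 5.25 and 4.96 against 4.56 to 4.90 (median 4.73). The nuclear receptor gene ftz-f1 read 4.37, 4.30 and 4.50 against 3.71 to 4.26 (median 3.89), a difference of 0.44 or 1.36-fold at a signal close to the floor of 4. The 24 probe sets of the ecdysone and juvenile hormone list had a median difference of 0.001.

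Hnf4, a nuclear receptor that drives lipid breakdown, read 7.10, 7.04 and 7.04 against 6.52 to 7.01 (median 6.83), so the AA 14-h array came within 0.02 of the cold arrays. REPTOR, a factor that acts when the nutrient-sensing kinase complex TORC1 is inactive, read 4.72, 4.66 and 4.94 against 4.35 to 4.63 (median 4.52). It was the only member among 21 probe sets of the insulin and TOR list, beside the share of 0.493% over all probe sets. The repressor gene aop, which encodes the ETS protein Yan of the Ras pathway, read 6.82, 6.71 and 6.90 against 5.65 to 6.70 (median 6.62). Here the gap was 0.003, and the difference was 0.38, or 0.28 without the CA 18-h array, which held the value of 5.65. The AA arrays of aop other than the one at 2 h lay between 6.62 and 6.70, just under the cold arrays.

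Further regulators of transcription were grouped by their known roles after their values had been seen. Sp1, a zinc finger factor, read 5.39, 5.47 and 5.44 against 4.97 to 5.29 (median 5.20). gem, of the CP2 and Grainyhead family, read 9.002, 9.012 and 9.170 against 8.40 to 8.93 (median 8.80), and its second probe set differed by 0.18 where the member differed by 0.31. The POU factor gene pdm3 read 5.70, 5.74 and 5.71 against 5.37 to 5.67 (median 5.52). Optix, a Six-family gene of eye development, read 5.91, 5.90 and 5.83 against 5.61 to 5.83 (median 5.72), with a gap of 0.002. Cipc, named after a mammalian protein that interacts with CLOCK and not on the list of core clock genes, read 5.01, 4.96 and 5.07 against 4.21 to 4.89 (median 4.69). Among the regulators of transcription, Dfd and REPTOR were highest at 10 h of the cold phase and Eip93F at 6 h.

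**Figure D2:**
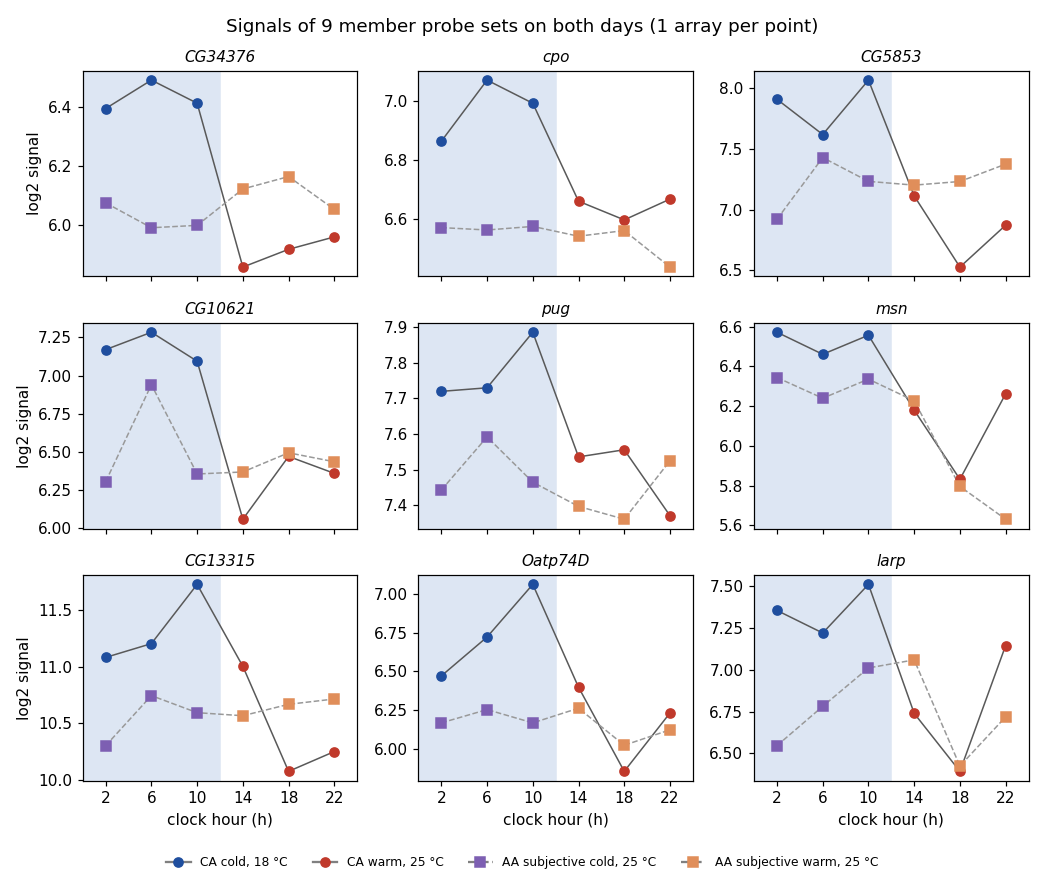
Log2 signal of 9 member probe sets against clock hour, 1 array per point, for the CA day (circles, solid line) and the AA day (squares, dashed line), with the cold or subjective cold hours shaded. In each panel the 3 points at 18 °C lie above the other 9, by 0.23 in CG34376 and by 0.07 in Oatp74D; the cpo panel shows probe set 150110_at.

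Enzymes of metabolism included both members of the folate and purine list, 2 of its 23 probe sets, beside the share of 0.493% over all probe sets. pug encodes a trifunctional enzyme that interconverts one-carbon forms of folate, the donors used for purine synthesis. It read 7.72, 7.73 and 7.89 at 18 °C and 7.36 to 7.59 (median 7.46) at 25 °C, a difference of 0.31 with a gap of 0.13. ry, the rosy gene, encodes xanthine dehydrogenase, which makes the purine end product urate and takes part in eye pigmentation. It read 6.99, 7.05 and 7.14 against 6.69 to 6.93 (median 6.84), a difference of 0.24 or 1.18-fold. For pug and ry alike the highest array at 25 °C was AA 6 h. The other probe sets of the list gave no general shift, its median difference being 0.02.

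CG10621, of the homocysteine S-methyltransferase family, had among the largest differences, 0.76 or 1.70-fold. It read 7.17, 7.28 and 7.09 at 18 °C, and at 25 °C 8 of its 9 arrays lay between 6.06 and 6.49 while AA 6 h read 6.94. Nadk1a, an NAD kinase that makes NADP, read 7.50, 7.48 and 7.77 against 6.90 to 7.40 (median 7.24). mino encodes a glycerol-3-phosphate acyltransferase, the enzyme that opens glycerolipid synthesis. It read 8.29, 8.36 and 8.71 against 7.52 to 8.22 (median 7.98), a difference of 0.50 or 1.42-fold, with CA 14 h as the highest array at 25 °C. No probe set among the 39 of the list of lipid synthesis and transport, on which mino does not stand, was a member, and the median difference there was 0.09. The aminopeptidase gene SP1029 differed by 0.13 with a gap of 0.011.

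Transporters formed another group. CG5853 belongs to the ABCG family, whose fly members carry pigment precursors, sterols and other small molecules. It read 7.91, 7.62 and 8.07 in the cold phase and 6.53 to 7.43 (median 7.20) at 25 °C, a difference of 0.76 or 1.70-fold, or 0.69 without the CA 18-h array. Oatp74D imports the steroid hormone ecdysone into cells. It was the only member among 65 probe sets of solute carriers and ABC transporters, beside the share of 0.493% over all probe sets, and 1 met the mirror rule. Oatp74D was higher at each later cold hour, at 6.47, 6.72 and 7.06. At 25 °C it read 5.85 to 6.40 (median 6.17), with CA 14 h as the highest. CG8051, of the monocarboxylate transporter family, had a similar course at 7.35, 7.45 and 7.81 against 7.06 to 7.32 (median 7.17). Neither CG5853 nor CG8051 is on the fixed list.

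Differences were small for the other transport proteins. Abca3, an ABC transporter, read 5.84, 5.77 and 5.77 against 5.40 to 5.76 (median 5.62), and the otopetrin-like gene OtopLc, of a family of proton channels, read 7.76, 7.81 and 7.77 against 7.63 to 7.75 (median 7.70). The OtopLc difference of 0.08, the smallest of all members, met the rule because its arrays had little spread.

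Signalling and cell contact were represented by msn and S in particular. msn, or misshapen, encodes a Ste20-type kinase that acts upstream of the stress kinase JNK. It read 6.57, 6.46 and 6.56 against 5.63 to 6.34 (median 6.23), a difference of 0.44 or 1.35-fold. The AA subjective cold arrays came nearest, at 6.31 ± 0.06 (SD, n = 3), and the AA warm arrays were lower and more spread, at 5.88 ± 0.31 (SD, n = 3). Star (S), a membrane protein that carries ligands of the EGF receptor out of the endoplasmic reticulum, read 5.57, 5.44 and 5.42 against 4.84 to 5.37 (median 5.04).

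Genes of axon guidance, synapse and centrosome had narrow differences. side-III, of the Sidestep family of immunoglobulin-type membrane proteins, read 5.08, 5.12 and 5.20 against 4.81 to 5.01 (median 4.96). comm3, related to the guidance gene commissureless, read 7.69, 7.71 and 7.66 against 7.50 to 7.62 (median 7.57). Prosap, a Shank-type scaffold of the postsynaptic membrane, read 7.17, 7.13 and 7.15 against 6.92 to 7.12 (median 7.04). Plp, a pericentrin-like protein of the centrosome, read 7.36, 7.48 and 7.36 against 7.07 to 7.30 (median 7.19). The lists of synapse and vesicle release genes, with 36 probe sets, and of cytoskeleton and motor genes, with 36, did not include these genes and held no member.

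Among genes whose function is not stated here, CG34376 had the widest gap outside the core clock genes, 0.23. It read 6.39, 6.49 and 6.41 at 18 °C against 5.86 to 6.17 at 25 °C. The highest member difference, 0.79 or 1.73-fold, belonged to CG13315, at 11.08, 11.20 and 11.73 against 10.073 to 11.002 (median 10.59). Its CA 14-h array, 2 h into the warm phase, was the highest at 25 °C, and the later CA arrays read 10.07 at 18 h and 10.25 at 22 h. The probe set 151722_at, which carries no symbol, read 4.80, 4.52 and 4.79 against 4.02 to 4.39 (median 4.14). Likewise CG9727 read 4.60, 4.76 and 4.64 against 4.12 to 4.47 (median 4.30), and CG31122 read 7.25, 7.26 and 7.18 against 6.18 to 7.15 (median 6.78). The lowest CG31122 reading, 6.18, was that of the AA 22-h array.

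The remaining members are given by their differences alone. CG13255 and CG3597 were each higher by 0.31, CG42269 and kmr by 0.25, CG5002 by 0.22, CG13215 and olf413 by 0.19, CG13386 by 0.18, CG14566 by 0.16, and CG7536 and CG31559 by 0.11. Of these, CG5002 and kmr had signals of 3.80 to 4.52 on all 12 arrays, close to the floor.

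Within the cold phase, the hour of the highest array was counted for each member. The 10-h array was the highest of the 3 for 22 of the 49 members (44.9%, against 27.5% of all probe sets with a mean of at least 4), the 6-h array for 17 (34.7%, against 36.9%) and the 2-h array for 10 (20.4%, against 35.6%). With 1 array per hour this order describes 3 arrays. The rule used these same values, while the shares over all probe sets are of probe sets not chosen for high values at 18 °C. The 2 shares are therefore not strictly comparable. The median member stood 0.18, 0.19 and 0.26 above its own 12-array mean at 2, 6 and 10 h, and the medians over all probe sets stayed between -0.02 and 0.04 on every array. After the step to 25 °C the median member stood at -0.03 at 14 h, -0.18 at 18 h and -0.06 at 22 h, and on the AA day between -0.10 and -0.01. CA 14 h alone was the highest of the 9 arrays at 25 °C for 5 members, CG13315, mino, Oatp74D, CG8051 and 151722_at, and it tied with CA 18 h for OtopLc.

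The CA 18-h array alone was the highest at 25 °C for 0 of the 49 members and for OtopLc in the tie with CA 14 h, while it was the highest for 26.3% of all probe sets. The rule bears on this share, because a probe set whose CA 18-h value stands above the cold arrays is no member. Without that array 74 probe sets met the rule. Leaving out another single array at 25 °C gave 61 to 77, so the count of 74 is not particular to the CA 18-h array. By group, the highest reading at 25 °C lay in the CA warm phase for 14 members (28.6%, against 42.6% of all probe sets with a mean of at least 4). It lay in the AA subjective cold phase for 19 (38.8%, against 28.4%) and in the AA subjective warm phase for 16 (32.7%, against 29%). These are counts of values that the rule used. Measured against group means, the median difference of the members was 0.34 from the CA warm phase, 0.25 from the AA subjective cold phase and 0.25 from the AA subjective warm phase. The CA warm phase had the lowest group mean in 24 members, the AA warm phase in 20 and the AA cold phase in 5. The same shares over all probe sets were not computed, so these counts are no result about the members.

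**Figure D3:**
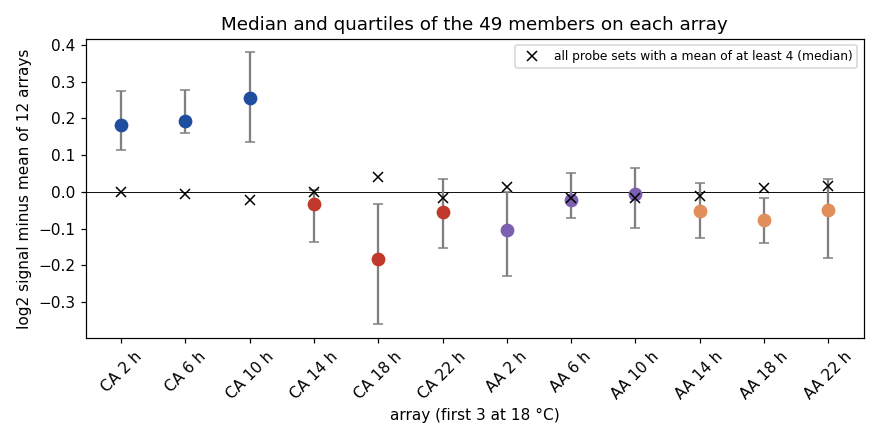
Median (points) and quartiles (bars) over the 49 members of the deviation from their own 12-array mean, in log2 units, for each array, with the median of all probe sets with a mean of at least 4 as crosses. The cold arrays stand at 0.18 to 0.26, as the rule requires, the CA 18-h array at -0.18 and the AA arrays between -0.10 and -0.01.

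The comparison of the CA warm phase with the AA warm phase asks whether members at 14, 18 and 22 h, after a cold phase, differed from the same hours of a day without it. The rule names neither group, but it favours little spread at 25 °C and leaves out probe sets with high values on the CA 18-h array, so its bearing on the direction is not nil. By limma with Benjamini-Hochberg adjustment over all 13966 probe sets, 0 of the 49 members passed an adjusted p of 0.05, and 2 probe sets or 0.0143% passed in all. At an unadjusted p under 0.05, 6 members were lower after the cold phase (12.2%, against 8.18% of all probe sets) and 2 were higher (4.08%, against 6.39%), where 14.6% of all probe sets differed in either direction. In sign, 27 were lower (55.1%, against 51.5%) and 22 higher (44.9%, against 48.4%), with a median of -0.07 against -0.01 over all probe sets. Without the CA 18-h array the median of the members was 0.01 and 24 were lower. The 8 members under an unadjusted p of 0.05 became 4 without the AA 18-h or the AA 22-h array and 13 without the CA 14-h array. Over all probe sets the count moved as well, from 2035 to 1544, 1298 and 2654 in these fits.

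aop had the largest of these differences. Its CA warm arrays read 6.22, 5.65 and 6.42 and its AA warm arrays 6.70, 6.62 and 6.64, a difference of -0.56 (SE 0.16, adjusted p = 0.207), which did not pass. For the transporter gene CG5853 the readings were 7.11, 6.53 and 6.87 after the cold phase and 7.20, 7.23 and 7.38 on the AA day, a difference of -0.43 (SE 0.16, adjusted p = 0.266). CG34376 read 5.86, 5.92 and 5.96 against 6.12, 6.17 and 6.05, a difference of -0.20 (SE 0.07, adjusted p = 0.250 by limma). CG13255 differed by -0.29, Dfd by -0.29 and Cipc by -0.22, with adjusted p values of 0.255, 0.318 and 0.340 by limma. On the higher side, CG14566 differed by 0.18 and olf413 by 0.17, with adjusted p values of 0.282 and 0.293 by limma.

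The comparison of the AA subjective cold with the AA subjective warm phase asks whether members kept a difference between the same hours once the temperature no longer changed. Again 0 of 49 members passed, with a lowest adjusted p of 0.752 by limma, and 0 of the 13966 probe sets passed (0%; 636 or 4.55% had an unadjusted p under 0.05 in either direction). At that unadjusted threshold 5 members were higher at the subjective cold hours, 10.2% against 2.51% of all probe sets, and 0 were lower, against 2.05%. In sign, 27 were higher (55.1%, against 41.3% of all probe sets) and 22 lower (44.9%, against 58.7%), with a median difference of 0.01 against -0.02 over all probe sets. The majority turned when the array of 6, 10 or 18 h on the AA day was left out, with 25 members lower and a median of -0.01 or -0.02 each time. The count of 5, taken in either direction, became 9 without the AA 6-h array, 3 without AA 10 h and 2 without AA 22 h. Over all probe sets the count of 636 became 827, 502 and 400 in the same fits.

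The 5 members under that unadjusted threshold, none of which passed after adjustment, were cpo, olf413, msn, CG31122 and S. The cpo probe set 143113_at read 7.65, 7.56 and 7.80 at the subjective cold hours and 7.38, 7.21 and 7.26 at the subjective warm hours, a difference of 0.39 (SE 0.11, adjusted p = 0.752). The other cpo member, 150110_at, read 6.57, 6.56 and 6.58 against 6.54, 6.56 and 6.44. olf413 read 5.40, 5.42 and 5.40 against 5.17, 5.17 and 5.18, a difference of 0.24 (SE 0.07, adjusted p = 0.877). The differences of msn and S were 0.42 (SE 0.14) and 0.26 (SE 0.10). CG31122 differed by 0.46 (SE 0.17), although its AA 14-h array at 6.88 lay above its AA 6-h array at 6.65. Both comparisons use the 3 AA warm arrays, so the positions of cpo, olf413 and msn in them are not independent.

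**Figure D4:**
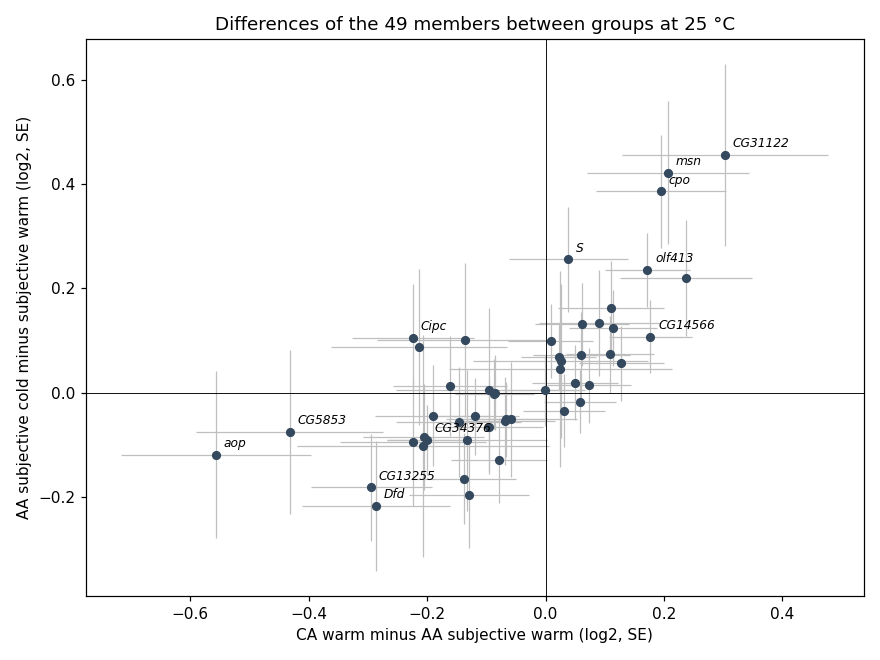
Differences of the 49 members between groups at 25 °C, in log2 units: CA warm minus AA warm on the horizontal axis and AA subjective cold minus AA subjective warm on the vertical axis, with bars of 1 SE from limma and names for members with an unadjusted p under 0.05 in either. No member passed an adjusted p of 0.05; the axes share the AA warm arrays, so the slope of the cloud is no result.

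Other probe sets of the same genes use the same contrast as the rule but were not selected by it. Of the 47 genes, 17 were measured by more than 1 probe set, with 24 further probe sets that were not members. Of these 24, 20 were higher at 18 °C and 4 lower, a share of 83.3% against 45.7% of all probe sets, and their median difference was 0.07. Probe sets of a gene can share transcripts, so these are not separate observations. For cpo, CG31122 and Rbfox1 the further probe set was close to the member, at 0.39, 0.43 and 0.27. At smaller differences those of pdm3 (0.15, member 0.19) and Prosap (0.07, member 0.11) were close too. The further OtopLc probe sets differed by 0.08 and 0.01, where the member differed by 0.08. The second Cipc probe set differed by 0.09, where the member differed by 0.34. In larp, CG42269, CG31559 and Plp a further probe set differed by -0.001, -0.14, -0.05 and -0.05, the opposite sign, the last with a mean under 4. The further probe sets of CG34376 differed by 0.07 and 0.03, far from the 0.42 of its member.

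**Figure D5:**
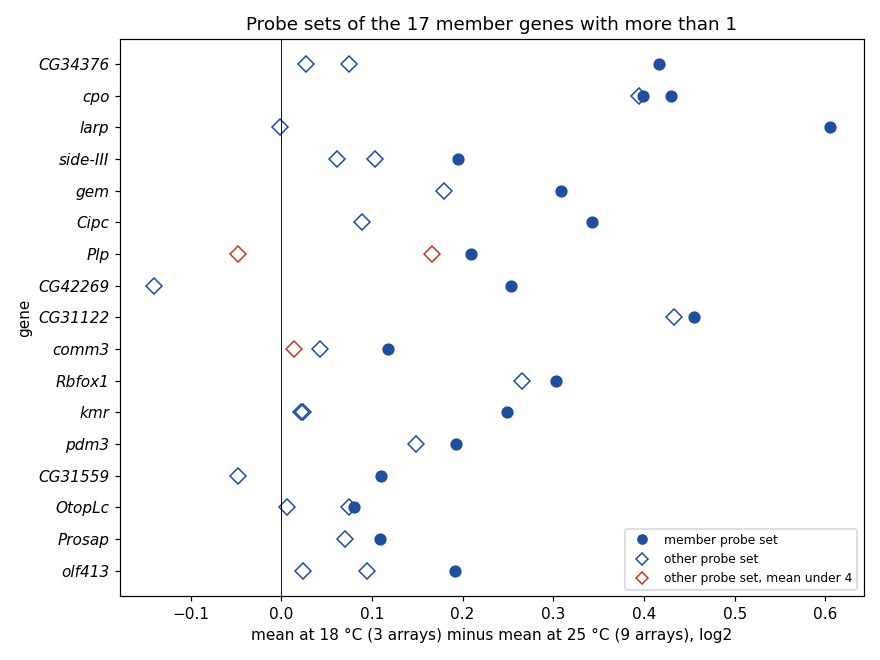
Mean at 18 °C minus mean at 25 °C, in log2 units, for every probe set of the 17 member genes with more than 1, as filled circles for members and open diamonds for the others (red where the mean is under 4). In cpo, CG31122 and Rbfox1, among others, the probe sets lie together, and in larp the member at 0.60 lies far from the other at -0.001.

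The members most like the median profile over the 12 arrays, by Pearson correlation among 9381 probe sets, were ry (0.945), mino (0.925), Oatp74D (0.923), CG5853 (0.919), CG13315 (0.903), CG9727 (0.890), gem (0.886), cpo (0.867) and larp (0.862). They help to form that profile. The only gene among the first 10 that was no member was srp, the GATA factor serpent of blood and fat body, at 0.864. It differed by 0.50 and missed the rule by 0.04. Other genes without membership near it were Vago, eas and pdgy, at 0.860, 0.854 and 0.851. Just outside the rule stood Polr3I and Vago, with equal lowest cold and highest warm values, and Cyp4ac1, which missed by 0.002. Their differences were 0.11, 0.56 and 0.30, and the AA 14-h array blocked each of them. Just inside stood aop and olf413, with gaps of 0.003, and Optix and cpo 143113_at, with gaps of 0.002.

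At a share of 0.493% over all probe sets, every one of these lists has less than 1 member on average, so an empty list is no result. Of 39 lists, 32 had none, 6 had at least 1 besides the core clock list, and 37 of the 49 members were on no list. Chaperones, which assist folding and are known for their response to heat, had 0 members and 4 of the mirror rule among 29 probe sets, with a median difference of -0.16. The list of cold stress genes had 0 members among 7 probe sets, Toll and Imd immunity 0 among 31, cytochrome P450 enzymes 0 among 67 and phototransduction 0 among 35.

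Markers of head tissues were present on every array. The photoreceptor markers Arr2, inaD and trp, 3 of 6 fixed, averaged 10.01 to 10.22 at 18 °C and 10.07 to 10.31 at 25 °C. Neuronal markers, 3 of 4 fixed, averaged 5.97 to 6.03 against 5.56 to 6.42, glial markers, 3 of 4, 7.51 to 7.90 against 7.35 to 7.92, and fat body markers, 6 of 6, 11.81 to 11.87 against 11.70 to 11.94. In each list the cold arrays overlapped the others, and no marker was a member. On the AA day the neuronal markers averaged 5.70 to 6.37 at the subjective cold hours and 5.56 to 5.84 at the subjective warm hours. Whether this bears on the AA differences of cpo, msn and CG31122 was not tested. Male accessory gland markers, 9 of 10 fixed and 6 of them with means under 4, averaged 3.14 to 3.54 against 3.10 to 3.84, and testis markers 5.28 to 5.54 against 5.19 to 5.88, with the highest values of both at CA 6 h, AA 2 h and AA 6 h. Gut markers, 10 of 12 fixed, averaged 5.30 to 5.74 against 5.24 to 5.88. Ovary and eggshell markers, 8 of 8 fixed, averaged 6.40 to 6.47 against 6.33 to 6.51, with the lowest value at AA 6 h. The part of these markers in the members' values was not tested.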

How the data were processed

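Heads of y w; tim01 flies were measured on 12 Affymetrix Drosophila Genome 1 arrays. The deposited log2 signals were made by the authors with RMA (background correction, quantile normalization and median polish; version not given in the sources used here) and were used as given. Because all arrays share nearly the same distribution after RMA, a shift common to most transcripts cannot be read, and precision is limited by the array number.

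Of 14010 probe sets, 44 controls were left out. Among the rest, 12443 had 1 gene symbol, 327 several and 1196 none. Of those with 1 symbol, 12394 were matched to RefSeq (assembly Release 6 plus ISO1 MT) and took its name, whether or not this changed the symbol. Differences are between means of log2 signals. Group means of all 12 arrays were fitted with limma 3.58.1 in R 4.3.3 (8 residual and 5.28 prior degrees of freedom), two-sided, with Benjamini-Hochberg adjustment over 13966 probe sets and a threshold of 0.05. The fit and the rule were tested on simulated data. Residuals of arrays of the same hour on both days correlated from -0.23 to 0.25, so days were not paired.

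The genes, rule and gene lists (39 lists, 996 of 1257 entries matched) were chosen with earlier results of these data known. Named were the 25 members with the widest gaps, list members, genes with 2 member probe sets, the 3 smallest p values per comparison at 25 °C, the 3 nearest the rule on each side and the 10 most like the median profile. All other members were named after their values were seen, to account for each. No sequence was read, and a promoter motif search that had been planned was not run. Alternatives covered the floor, the gap, array centring, single arrays and the settings of limma.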

Additional observations from a re-analysis of the deposited data

How the results depend on the processing

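The count of 52 members was 62 with a floor of 3 on the mean signal, 41 with a floor of 5 and 30 with a floor of 6. With a minimum gap of 0.1 it was 10, core clock genes included, and with 0.2 it was 3. With arrays centred on their medians 48 probe sets met the rule, 44 of the 52 among them, and with 1 probe set per gene 43 did. Leaving out single arrays gave 61 to 174, with 162, 174 and 115 without the CA 2-h, 6-h and 10-h array. The rule is looser with fewer arrays, and the 52 remained in each of these 12 cases. In alternatives chosen after seeing the data, 227 met it without the CA 6-h, AA 2-h and AA 6-h arrays and 314 without these and the CA 18-h array. Order alone also lets more probe sets through when fewer arrays are ranked. None of these higher counts therefore shows that more genes were raised at 18 °C. In both comparisons at 25 °C, 0 members passed under every setting of limma run. The lowest adjusted p of a member was 0.0944 to 0.471 between the warm phases and 0.169 to 1 within the AA day. With array weights, 14 and 8 members had an unadjusted p under 0.05 in the 2 comparisons, against 8 and 5. Of all probe sets, 2271 and 1185 did so with array weights, against 2035 and 636 without. Over all probe sets, 0 to 10 passed between the warm phases. Another fit took the place of the hour within its phase as a replicate block, so that 2 h was joined with 14 h. With it 0 members passed in either comparison, and 1 and 0 probe sets passed in all. The hours joined in this way shared only that place. Precision is limited by 1 array per hour, and members with means near 4 were the nearest to the floor.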
